A study of Mus musculus with 24 samples.

Results

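The respiratory chain genes described here are 84 of the 24411 genes in the tables. They were chosen by symbol alone, as every gene whose name begins with Nduf followed by a, b, c, s or v and a number, with Uqcr, with Cox4 to Cox8 or with Atp5, together with *Sdha*, *Sdhb*, *Sdhc* and *Sdhd*. Complex I is represented by 35 genes, complex II by 4, complex III by 8, complex IV by 20 and complex V by 15. The other 2, *Atp5s* and *Atp5sl*, carry the name but are not subunits of the ATP synthase. *Ndufa4* and its paralog *Ndufa4l2* were counted in complex IV, where the *Ndufa4* protein is now placed. A gene was tested in a table where its mean was at least 10 normalized counts. The filter was passed by 75 of the genes in all 6 tables, 3 passed in some (*Atp5s* and *Cox6b2* in astrocytes, *Cox6a2* in microglia), and 6 passed in none (*Cox4i2*, *Cox7a1*, *Cox7b2*, *Cox8b*, *Cox8c* and *Ndufa4l2*).

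The complexes sit in the inner mitochondrial membrane. Complex I (NADH dehydrogenase) and complex II (succinate dehydrogenase, which is also an enzyme of the citric acid cycle) pass electrons to ubiquinone, complex III passes them on to cytochrome c, and complex IV hands them to oxygen. Complexes I, III and IV pump protons across the membrane, and complex V, the ATP synthase, lets them flow back to make ATP. Most subunits are encoded in the nucleus, a few in mitochondrial DNA, and several subunits of complexes IV and V come as isoforms expressed in different tissues. Astrocytes are known for a high rate of glycolysis beside respiration, and macrophages and microglia given bacterial lipopolysaccharide are known to shift toward glycolysis.

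The libraries came from cultures of mouse glia that were wild-type (WT) or carried SOD1G93A, a human *SOD1* transgene with a mutation that causes amyotrophic lateral sclerosis, driven by its own human promoter in all cells rather than in one cell type. Astrocytes were immunopanned from forebrains at postnatal day 5, after removal of cells bound by CD45, the lectin BSL-I and O4, and selection with HepaCAM. Microglia were sorted with magnetic beads against Cd11b from brains at postnatal day 7 to 10, and both cell types were kept in serum-free medium. Quiescent cultures received saline, activated astrocytes received 3 ng/ml IL-1α, 30 ng/ml TNFα and 400 ng/ml C1q together, and activated microglia received 50 ng/ml lipopolysaccharide (LPS). Of 24 samples, 21 libraries in 7 conditions of 3 each were analysed: WT quiescent, WT LPS and SOD1G93A LPS microglia, and WT and SOD1G93A astrocytes, each quiescent and activated. No library of SOD1G93A microglia without LPS was analysed here, so a genotype comparison was possible in LPS microglia and in both states of astrocytes. The labels do not say whether the 3 replicates of a condition were separate cultures, and a supplementary table of replicate numbers was not read here, so the p-values measure only the spread between these samples, which may be technical. Poly(A) RNA was sequenced in pairs of reads, and the whole reads recovered from the tables summed to between 2016139 and 11570122 per library, with a median of 5098168.

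The marker genes fitted the labelled cell types. The summed level of 12 microglial markers was 10838, 11347 and 10671 CPM (counts scaled to the library's total) in the WT quiescent microglia, with *Csf1r* highest, against 166, 232 and 290.4 in the WT quiescent astrocytes. The summed level of 10 astrocyte markers was 4992, 5413 and 6228 CPM in the WT quiescent astrocytes, with *Slc1a3* highest, against 168, 155 and 167 in the WT quiescent microglia. Neither pair of groups overlapped. Genes of the oligodendrocyte lineage were the main other signal in the astrocyte cultures, and their values stand beside the results they move with.

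Complex V took the largest share of reads in each of the 21 libraries and complex II, which has only 4 subunits, the smallest. In WT quiescent microglia complex V held 0.208, 0.217 and 0.212 percent of a library's reads, complex I 0.125, 0.132 and 0.122, complex IV 0.113, 0.121 and 0.116, complex III 0.0545, 0.0580 and 0.0542 and complex II 0.0367, 0.0369 and 0.0369. In WT quiescent astrocytes complex V held 0.489, 0.464 and 0.398 percent of reads, complex I 0.274, 0.240 and 0.187, complex IV 0.258, 0.215 and 0.150, complex III 0.133, 0.110 and 0.0852 and complex II 0.0708, 0.0678 and 0.0637. Each complex took a larger share in all 3 astrocyte libraries than in any of the microglial ones. The WT quiescent astrocyte libraries also differed among themselves, with replicate 1, the shallowest of the 21 libraries, highest and replicate 3 lowest for every complex. All 84 genes together took 1.23, 1.10 and 0.886 percent of reads there, from 2016139, 3637657 and 9258718 reads.

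**Figure D1:**
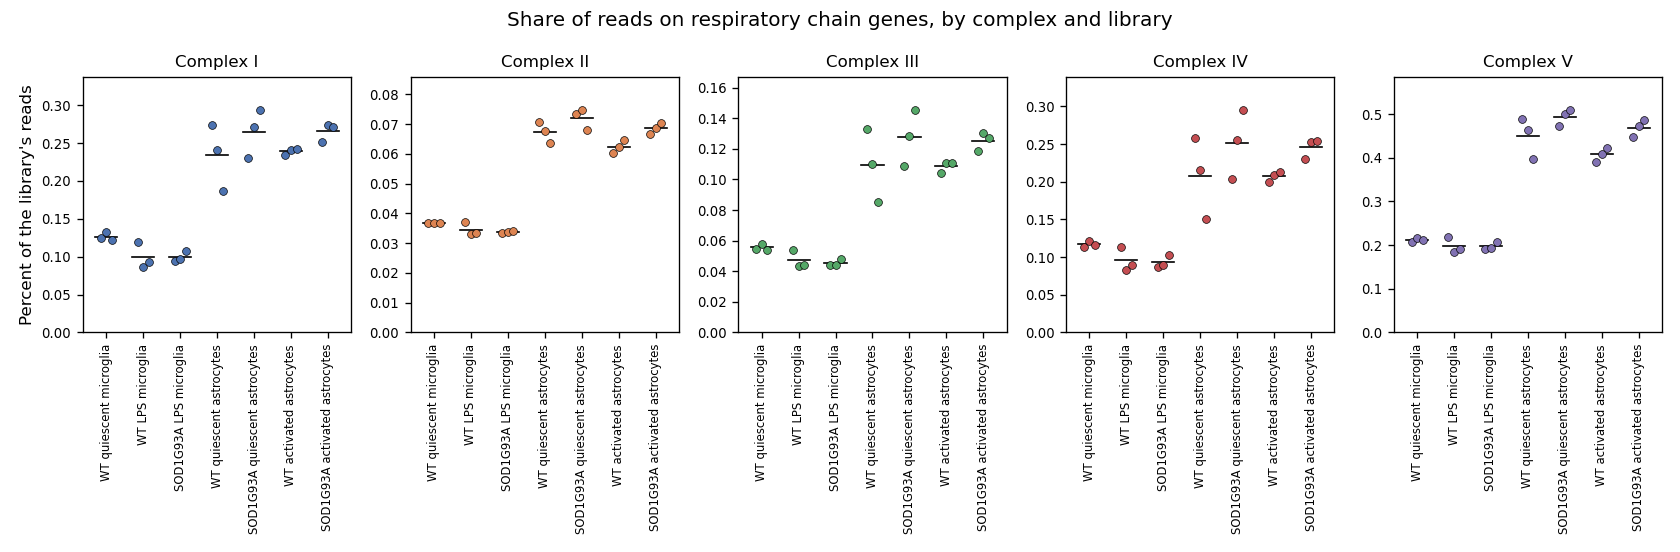
Percent of each library's reads that fell on the genes of complexes I to V in the 7 conditions, with a dot per library and a line at the mean of 3. Astrocyte libraries lie above microglial ones in each panel, and the 3 WT quiescent astrocyte libraries are spread widely.

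In the WT quiescent groups complex V also came first per length of transcript, but complex I came last. The median level in RPKM (reads per kilobase of transcript, scaled to the library's total) in the 3 WT quiescent microglia was 36.6, 44.5 and 35.2 over complex I, 49.7, 45.5 and 51.3 over complex II, 62.9, 66.9 and 64.8 over complex III, 85.8, 92.0 and 76.3 over complex IV and 97.1, 97.0 and 98.5 over complex V. The values for complexes IV and V lay above those for complexes I, II and III in all 3 libraries, and complex I lay lowest. The median of complex IV covers only the 14 of its 20 genes that passed the filter in some or all tables. Counting the 6 left out, which are near 0, would put complex IV below complex III in all 3 libraries. In the WT quiescent astrocytes the median level per length was 80.1, 67.2 and 50.8 over complex I, 241, 194 and 133 over complex IV and 256, 215 and 163 over complex V. The same complexes were lowest and highest there in each library. In the SOD1G93A quiescent astrocytes complex IV had a higher median (181, 254 and 272) than complex V (200.2, 244 and 231) in replicates 2 and 3. The same order held in WT LPS microglia replicate 2 (77.9 and 75.6) and SOD1G93A activated astrocytes replicate 3 (236 and 233). It rests on the 14 complex IV genes, and with the 6 left out counted complex IV would lie below complex V in these libraries. The genes are short, with a median transcript length of 809 bases over the 83 matched to the annotation against 2419 over all genes. For 6 of them (*Atp5d*, *Atp5g1*, *Atp5g2*, *Ndufb2*, *Ndufc1* and *Uqcrq*) the annotated main transcripts differ in length by more than 1.5 times, so their own levels per length are not given, though they enter the medians of complexes I, III and V.

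Among single genes in WT quiescent microglia, the highest levels per length were those of *Cox6a1* at 315 ± 11.4 (SD, n = 3), *Cox4i1* at 299 ± 16.7 and *Atp5b* at 292 ± 3.96 RPKM. *Cox4i1* and *Cox6a1* encode the widely expressed forms of complex IV subunits, and *Atp5b* encodes the catalytic beta subunit of the ATP synthase. *Cox6a1* lay above *Atp5b* in all 3 libraries, and the values of *Cox4i1* overlapped with both. In WT quiescent astrocytes *Atp5b* had the highest level per length, 665 ± 16.9, above *Cox8a* at 541 ± 97.8, *Cox4i1* at 466 ± 148 and *Atp5a1*, which encodes the partner alpha subunit, at 448 ± 3.96. Core subunits of complex I were lower, with *Ndufs1*, the largest iron-sulfur subunit, at 18.7 ± 0.996 in microglia and 38.8 ± 2.08 in astrocytes per length, and *Ndufv1*, which holds the NADH-binding site, at 20.9 ± 1.45 and 42.6 ± 2.27.

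In complex IV the forms known from heart, skeletal muscle, lung or testis were low or at 0. *Cox4i2*, the lung form, had at most 4 reads in a library, *Cox7a1*, a heart and muscle form, at most 7, *Ndufa4l2* at most 3, *Cox8b* and *Cox7b2* at most 1, and *Cox8c* had 0 in all 21 libraries. *Cox6b2*, the testis form, had a level per length of 10.1 ± 6.12 in WT quiescent astrocytes, from 19 to 22 reads in a library, against 319.8 ± 77.1 for the ubiquitous *Cox6b1*. *Cox6a2*, the heart and muscle form, stood at 1.10 ± 0.461 per length in WT quiescent microglia, 7.20 ± 2.10 in WT LPS microglia and 5.59 ± 3.47 in SOD1G93A LPS microglia, and at 0 or 1 read in each WT quiescent astrocyte library. In all of these cells it stayed far below *Cox6a1*, whose level per length was 243 ± 41.2 in WT LPS microglia. *Ndufa4* stood at 70.0 ± 2.49 per length in WT quiescent microglia and 188 ± 72.4 in WT quiescent astrocytes.

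The comparison of WT quiescent microglia with WT quiescent astrocytes called more genes of the chain than any other. For this comparison the recovered reads were scaled together, and a gene was called where limma's adjusted p over all genes was under 0.05. Of 77 respiratory chain genes tested, 37 were lower and 7 higher in microglia, against 39.9 percent lower and 38.5 percent higher over all 12064 genes (78.3 percent called). The count of lower genes includes *Cox6b2* and *Atp5s*, which passed the filter only through the astrocytes. The median log2 difference was −0.35 for the respiratory chain genes and −0.04 for all genes. It ran from −0.45 without WT quiescent astrocyte replicate 3 to −0.23 without replicate 1, and was −0.64 with quantile normalization. By complex it was −0.34 for complex I (15 lower and 5 higher of 35), −0.39 for complex II (3 lower of 4), −0.47 for complex III (5 lower of 8), −0.30 for complex IV (5 lower and 1 higher of 13) and −0.35 for complex V (8 lower of 15). At an adjusted p under 0.001 and a difference of more than 2-fold, 7 of the 77 passed, against 47.3 percent of all genes. The oligodendrocyte lineage genes summed to 1317, 1343 and 1359 CPM in the microglia and 2956, 2883 and 2778 in the astrocytes. The neuronal genes, mostly *Map2*, summed to 18.4, 15.7 and 16.9 against 955, 985 and 756. Endothelial genes were higher in the microglia, at 67.0, 75.3 and 75.1 against 8.93, 9.90 and 13.4. The part of these lists in the result was not tested. Fewer cells of a type and less RNA per cell cannot be told apart in these libraries.

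*Ndufc2*, an accessory subunit of the membrane arm of complex I (GRCm38 chromosome 7, 97400003 to 97407802), had 591, 493 and 350.0 normalized counts in WT quiescent astrocytes and 144, 153 and 152 in WT quiescent microglia. Each astrocyte library lay above each microglial one, and the astrocyte values were spread (log2 change −1.64, SE 0.17, adjusted p = 5.52e-06, limma). *Atp5g3*, which encodes a copy of the membrane ring subunit c of the ATP synthase, had 1108, 1040.5 and 751 in astrocytes and 449, 455 and 458 in microglia. The microglial values were close together and all below the astrocyte ones (−1.07, adjusted p = 3.12e-05, limma). *Atp5b* (GRCm38 chromosome 10, 128083273 to 128090391) had 4822, 5025 and 5041 in astrocytes and 3169, 3350.3 and 3286 in microglia, again without overlap (−0.60). *Cox6b2* had 35.4, 23.4 and 9.23 in astrocytes and 2.26, 4.65 and 3.36 in microglia, and *Atp5s*, a coupling factor of the ATP synthase, had 37.3, 19.1 and 14.1 and 3.96, 6.97 and 7.56. Both passed the filter only through the astrocytes, so their values are given as a description and their tests as no support.

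A few genes of complex I went the other way. *Ndufa1*, a small membrane subunit encoded on the X chromosome (GRCm38 chromosome X, 37187588 to 37191163), had 252, 194 and 152 normalized counts in WT quiescent astrocytes and 430.0, 414 and 363 in WT quiescent microglia. All 3 microglial libraries lay above the astrocyte ones, and the astrocyte values were spread (log2 change 1.04, SE 0.17, adjusted p = 0.000187, limma). *Ndufa2*, a subunit of the peripheral arm, had 110.0, 126 and 102 in astrocytes and 187, 265 and 197 in microglia, also without overlap (0.92). *Atp5sl* (0.71), an assembly factor of complex I despite its name, and *Cox6a1* (0.40) were also called higher in microglia, but with quantile normalization *Cox6a1* came out at −0.12. Of the core subunits, *Ndufs1*, *Ndufv1*, *Sdha*, *Sdhc*, *Sdhd*, *Uqcrfs1* and *Atp5a1* were called lower in microglia, with log2 differences between −0.56 and −0.35. Without the filter on low values the median of all genes moved to −0.19, and with at least 10 counts asked of every library to 0.10, while that of the respiratory chain genes stayed at −0.35 and −0.34.

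LPS changed part of the chain in WT microglia, in both directions. Of 76 genes tested, 15 fell and 7 rose, so 22 were called, against 56.9 percent of all 10866 genes (28.3 percent lower and 28.6 percent higher). The median log2 change was −0.09 for the respiratory chain genes and 0.0048 for all genes, and ran from −0.15 without WT LPS replicate 1 to −0.012 without WT quiescent replicate 2. *Cox6a2*, counted among the rises, passed the filter only through the LPS libraries and is given below as a description. The rule of an adjusted p under 0.001 with more than a 2-fold change, which 20.8 percent of all genes passed, was met by no other gene of the chain. Complex I had 9 falls and 2 rises of 35 (median −0.11), complex III 2 falls of 8 (−0.06), complex IV 2 falls and 3 rises of 13 (−0.10) and complex V 2 falls and 1 rise of 15 (−0.10). In complex II, *Sdhb*, the iron-sulfur subunit, was the only call, a rise (0.36), and the median over its 4 genes was 0.20. With quantile normalization 21 genes fell and 3 rose, and *Sdhb*, *Atp5b*, *Cox5a* and *Cox5b* lost their calls.

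The largest fall was that of *Uqcr11*, a small membrane subunit of complex III (GRCm38 chromosome 10, 80402997 to 80406830), which had 273, 324 and 269 normalized counts in WT quiescent microglia and 201, 124 and 138 in WT LPS microglia. The groups did not overlap, and replicate 1 of the LPS group lay nearest the quiescent values (log2 change −0.92, SE 0.17, adjusted p = 0.000996, limma). *Ndufb11*, an accessory subunit of complex I encoded on the X chromosome, had 248, 231 and 211 before and 168, 114 and 132 after LPS. *Ndufv3*, a small subunit beside the NADH-binding site, had 196, 202 and 190.0 before and 146, 108 and 107 after LPS. For both genes every LPS library lay below every quiescent one (−0.75 for *Ndufb11* and −0.71 for *Ndufv3*). *Ndufs1* had 252, 255 and 276 in quiescent and 184, 154 and 179.7 in LPS microglia, a fall of all 3 libraries below the quiescent range (−0.60, adjusted p = 0.000992, limma). Among the subunit c genes of the ATP synthase, *Atp5g2* fell (−0.58), from 383, 496 and 416 to 358, 273 and 239.6 without overlap, while *Atp5g1* (−0.10) and *Atp5g3* (−0.10) were not called. Reads of *Ndufb11* and *Atp5g2* may be shared with 1 and 2 near-identical copies elsewhere in the genome.

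*Cox6a2* had 5.07, 2.10 and 4.54 normalized counts in WT quiescent microglia, from 1 to 10 reads in a library, and 38.9, 27.0 and 23.4 in WT LPS microglia, from 18 to 53 reads. Because it passed the filter only through the LPS group, its test is not used as support. *Atp5b* rose from 2842, 3034 and 2961 to 4066, 3817 and 3951, with narrow groups and a wide gap between them (0.42, adjusted p = 0.000649, limma). *Ndufa6*, an accessory subunit of complex I (0.47), *Ndufs4*, a subunit of its peripheral arm whose loss causes Leigh syndrome (0.68), and the nuclear-encoded complex IV subunits *Cox5a* (0.36) and *Cox5b* (0.35) also rose. Of the complex IV genes, *Cox7a2l*, a factor of supercomplex assembly, fell (−0.44), as did *Ndufa4* (−0.42).

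The number of calls moved with single libraries. Without WT quiescent replicate 1, 2 or 3 it was 12 (3 rises), 14 (6 rises) or 14 (3 rises), and without WT LPS replicate 1 it was 40 (7 rises and 33 falls). That library held 0.545 percent of its reads on the 84 genes, against 0.433 and 0.453 percent in WT LPS replicates 2 and 3 and 0.540, 0.568 and 0.543 percent in the quiescent ones. The calls of *Uqcr11*, *Ndufb11*, *Ndufv3*, *Ndufs1*, *Atp5g2*, *Cox7a2l* and *Atp5b* held without any 1 library. *Ndufa6* lost its call without quiescent replicate 1, *Ndufs4* without quiescent replicate 2 or 3 or LPS replicate 1 or 3, *Cox5a* and *Sdhb* without quiescent replicate 1 or 3, and *Cox5b* without any of the 3 quiescent replicates. *Ndufa4* lost its call without any of the 3 quiescent replicates or LPS replicate 2 or 3. The 12 microglial markers summed to 3469, 3436 and 3494 CPM after LPS, with *Itgam* highest. The 8 oligodendrocyte lineage genes went from 1317, 1343 and 1359 to 105, 103 and 110.0, mostly *Cspg4*. The cytosolic ribosomal protein genes took 2.20, 1.59 and 1.66 percent of reads after and 2.50, 2.7 and 2.51 percent before LPS. Border macrophage and monocyte genes summed to 5.61, 7.84 and 9.22 CPM before and 16.7, 16.7 and 16.9 after LPS, though *Mrc1* fell (mean 3.51 to 0.367). Pericyte and fibroblast genes went from 11.7, 5.49 and 5.19 to 19.3, 18.6 and 16.9. Endothelial genes went from 67.0, 75.3 and 75.1 to 45.6, 55.9 and 50.7, a fall carried by *Flt1* (mean 52.8 to 4.03 CPM). *Cdh5* also fell, while *Kdr* (17.6 to 31.1) and *Pecam1* (0.979 to 14.9) rose. Neuronal genes went from 18.4, 15.7 and 16.9 to 12.8, 9.61 and 14.5. The part of these lists in the result was not tested.

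SOD1G93A LPS microglia were compared with the same WT quiescent libraries, so the 2 comparisons share samples and differ also in genotype. Here 17 respiratory chain genes were lower and 7 higher of 76, so 24 were called, against 53.9 percent of all 10921 genes (26.1 percent lower and 27.8 percent higher). With quantile normalization the split was 24 lower and 5 higher. The median log2 difference was −0.08, against 0.0090 over all genes, and −0.0047 without WT quiescent replicate 2. *Uqcr11* was again lowest (−0.79), followed by *Ndufb11* (−0.68) and *Uqcrh*, the hinge subunit of complex III (−0.66). *Uqcrh* had 435, 528 and 454 normalized counts in WT quiescent and 307, 312 and 276 in SOD1G93A LPS microglia, with no overlap. *Cox6a2* had 5.39, 2.24 and 4.82 and 12.4, 20.4 and 40.7 normalized counts, and it again passed the filter only through the LPS libraries, so these values are a description. *Ndufc2* (0.45), *Sdhd*, a membrane anchor of complex II (0.37), and *Atp5b* (0.38) were higher, and the *Atp5b* call was lost with quantile normalization. The microglial markers summed to 3866, 3767 and 5485 CPM in the SOD1G93A LPS libraries, against 10838, 11347 and 10671 in the WT quiescent ones, and the oligodendrocyte lineage genes to 149, 152 and 248, against 1317, 1343 and 1359. Of 77 cytosolic ribosomal protein genes 59 were lower and 4 higher. SOD1G93A LPS replicate 3 stood apart from replicates 1 and 2 (chi-square per degree of freedom 15.7 and 20.3), and without it 25 genes were lower and 8 higher. The part of these in the result was not tested.

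**Figure D2:**
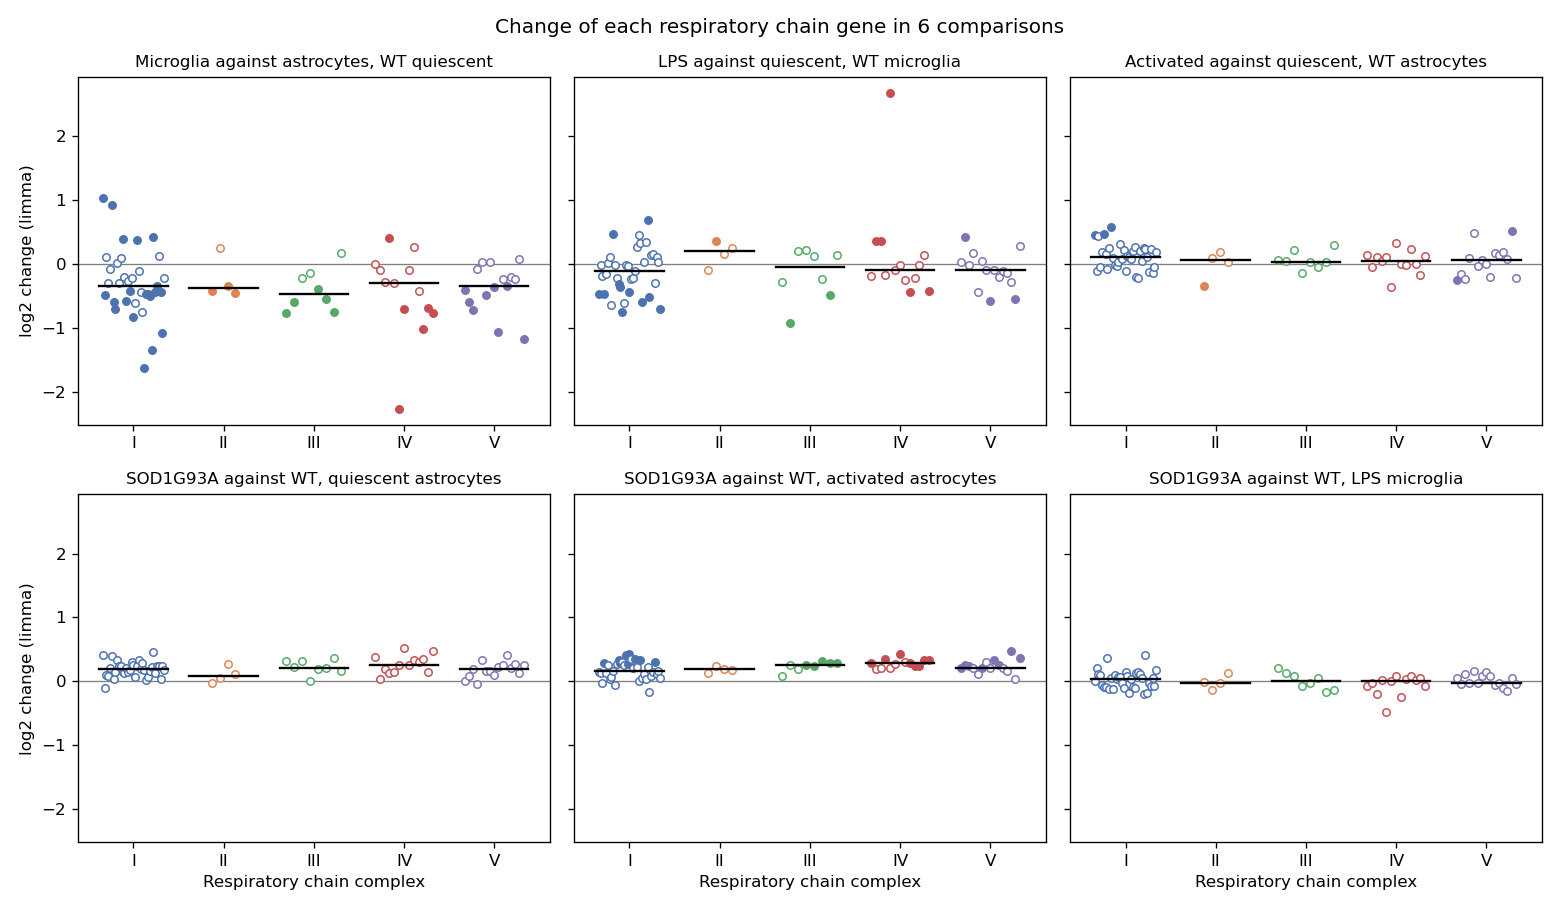
Log2 change of each respiratory chain gene by complex in 6 comparisons, with a dot per gene, filled where the adjusted p was under 0.05, and a line at the median of the complex. The medians lie below 0 for every complex in microglia against astrocytes and above 0 for every complex in the SOD1G93A against WT activated astrocytes.

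Activation of WT astrocytes with IL-1α, TNFα and C1q changed few genes of the chain. Of 77 tested, 4 rose and 2 fell, so 6 were called, against 38.3 percent of all 12336 genes (19.1 percent higher and 19.2 percent lower). The median log2 change was 0.08, against 0.01 over all genes. The medians were 0.11 for complex I, 0.06 for complex II, 0.04 for complexes III and IV and 0.07 for complex V. In complexes III and IV 0 genes were called by limma, edgeR or DESeq2, and 1 and 0 had an unadjusted limma p under 0.05. Over all 77 genes edgeR called 8 and DESeq2 called 7. Of 77 cytosolic ribosomal protein genes 6 were called higher and 0 lower by limma in the same comparison, and 24 had an unadjusted p under 0.05. Their changes were above 0 for 76 (median 0.29), and their part in the result was not tested.

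The 2 falls were in genes of central roles. *Sdha*, the flavoprotein that oxidizes succinate (GRCm38 chromosome 13, 74322254 to 74350280), had 1377, 1449 and 1662 normalized counts in WT quiescent and 1095, 1158 and 1287 in WT activated astrocytes. All 3 activated libraries lay below all 3 quiescent ones (log2 change −0.34, SE 0.10, adjusted p = 0.0189, limma). *Atp5a1* had 5155, 5332 and 5472 in quiescent and 4309, 4450.1 and 4629.8 in activated astrocytes, also without overlap (−0.25, adjusted p = 0.0438, limma). The 4 rises were *Ndufa7*, *Ndufa2* and *Ndufa1* of complex I and *Atp5l*, the membrane subunit g of the ATP synthase. *Ndufa7* had 219, 203 and 138 in quiescent and 256, 305 and 261 in activated astrocytes (0.57), and *Ndufa2* had 137, 156 and 124 in quiescent and 174, 203 and 198 in activated ones (0.46). Both genes separated the groups, with quiescent replicate 3 lowest. For *Ndufa1* (0.46, adjusted p = 0.0497, limma) and *Atp5l* (0.51, adjusted p = 0.0441, limma) the groups overlapped, because quiescent replicate 1 lay within the activated range. Reads of *Atp5l* may also be shared with 9 near-identical copies, 8 of them pseudogenes.

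These calls depended on single libraries. Without WT quiescent replicate 1, 2 or 3 the number called was 20 (17 rises), 2 or 13 (2 rises and 11 falls), and the median was −0.11 without quiescent replicate 3. Without WT activated replicate 1, 2 or 3 it was 2, 0 or 2, where 0 came with 4 genes at an unadjusted p under 0.05. *Sdha* lost its call without quiescent replicate 2 or activated replicate 1 or 2, and *Atp5a1* and *Atp5l* without quiescent replicate 2 or any activated replicate. *Ndufa1* and *Atp5l* lost theirs without quiescent replicate 3, *Ndufa1* also without quiescent replicate 2 or any activated replicate. *Ndufa7* lost its call without activated replicate 2, and *Ndufa2* without activated replicate 2 or 3. With the reads of a library as a term in the fit, an alternative chosen after seeing the data, 35 genes rose and 4 fell, while of all 12336 genes 3241 rose and 3067 fell in that fit. The split was 2 rises and 3 falls with quantile normalization and 2 rises and 2 falls with TMM rescaling. Without the trend of limma 1 gene was called, and with the trend over transcript length removed 12 were. The summed level of 8 oligodendrocyte lineage genes moved with activation, from 2956, 2883 and 2778 to 1067, 1104 and 1043 CPM, with *Olig1* highest and *Mog* at 0 in the quiescent libraries. Among 6 endothelial genes *Flt1* rose from a mean of 8.85 to 144 CPM, *Pecam1* and *Tek* also rose, and *Kdr* and *Cdh5* fell. Their summed level, carried by *Flt1* and with *Cldn5* at 0, moved from 8.93, 9.90 and 13.4 to 137, 148 and 153 CPM. That of 8 neuronal genes moved from 955, 985 and 756 to 394, 444 and 447, a fall carried by *Map2* alone (mean 872 to 384 CPM). The means of all other genes of that list rose, with *Tubb3* going from 10.5 to 21.4 CPM. That of 7 pericyte and fibroblast genes moved from 12.5 ± 3.97 to 50.04 ± 4.73 (mean ± SD of 3), with *Lum* highest after and *Kcnj8* at 0. The part of these lists in the result was not tested.

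Activation of SOD1G93A astrocytes was measured in other libraries. Of 77 genes tested, 7 were called and all 7 rose, against 43.1 percent of all 12203 genes called and 21.6 percent called higher. The median log2 change was 0.09, and ran from −0.0016 without SOD1G93A quiescent replicate 1 to 0.17 without replicate 3. edgeR called 6 genes and DESeq2 5, and 12 had an unadjusted limma p under 0.05. *Uqcrq*, a small subunit of complex III, rose from 403, 475 and 543 to 629.8, 645 and 626 normalized counts, with close values in the 3 activated libraries (log2 change 0.43, SE 0.11, adjusted p = 0.00398, limma). *Atp5d*, the delta subunit of the ATP synthase, rose from 1234, 1147 and 1132 to 1380.3, 1421 and 1647 without overlap (0.34). *Ndufa2*, *Sdhb* and *Cox6a1* were among the others called, with changes between 0.25 and 0.31. The split was 2 rises and 3 falls with quantile normalization, 1 rise and 6 falls with the reads of a library as a term, and 2 rises and 9 falls with the length trend removed. The number called was 2 without SOD1G93A quiescent replicate 2, 21 (19 rises) without replicate 3, 3 without SOD1G93A activated replicate 2 and 1 without replicate 3. All of these named genes lost their calls with the reads of a library as a term, where *Uqcrq* was at 0.26 and *Atp5d* at 0.31. *Uqcrq* kept its call without any 1 library, *Atp5d* lost it without quiescent replicate 2 or activated replicate 3, and *Ndufa2*, *Cox6a1* and *Sdhb* each lost it without quiescent replicate 2 or activated replicate 2 or 3. *Ndufa2* lost it also without quiescent replicate 1 or activated replicate 1, and *Cox6a1* without quiescent replicate 1. The summed oligodendrocyte lineage genes moved from 3421, 3177 and 3226 to 1054, 1014 and 1079 CPM. The endothelial ones moved from 6.61, 7.45 and 6.99 to 118, 117 and 111, carried by *Flt1* (mean 5.45 to 113 CPM), while *Kdr* and *Tek* fell. The neuronal ones moved from 975 ± 49.1 to 410.2 ± 16.6 (mean ± SD of 3), carried by *Map2* (mean 952 to 379 CPM). *Gad1* and *Stmn2* also fell, while the other neuronal genes rose. The pericyte and fibroblast genes moved from 8.71 ± 0.562 to 36.7 ± 2.16. The part of these lists was not tested. Of 77 cytosolic ribosomal protein genes 36 rose and 0 fell by limma in the same comparison (63 had an unadjusted p under 0.05, median 0.30), and the activated libraries held 2135439 to 3929272 reads, against 3292225 to 9526331 in the quiescent ones.

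The responses of the 2 WT cell types to their stimuli were compared directly, as the LPS change in microglia minus the cytokine change in astrocytes. Of 78 genes tested, 7 were called with a more negative and 4 with a more positive change in microglia, against 41 percent of all 12334 genes called (20.9 percent more negative and 20.1 percent more positive). The median log2 difference was −0.17 over the respiratory chain genes and 0.0040 over all genes. It ran from −0.30 without WT LPS replicate 1 to −0.014 without WT quiescent astrocyte replicate 3. Of 77 cytosolic ribosomal protein genes 42 were called more negative and 0 more positive (median −0.58). The summed oligodendrocyte lineage genes fell from 1317, 1343 and 1359 to 105, 103 and 110.0 CPM in microglia. In astrocytes they fell from 2956, 2883 and 2778 to 1067, 1104 and 1043. The part of these lists was not tested. By complex the median difference of the respiratory chain genes was −0.29 for complex I, 0.25 for complex II, −0.14 for complexes III and V and −0.20 for complex IV. *Uqcr11*, with all reads scaled together, had 319, 373 and 312 normalized counts in quiescent microglia and 235, 142 and 161 in LPS microglia, against 655, 523 and 416 in quiescent and 496, 558 and 541 in activated astrocytes. It was lower after LPS in microglia, while the astrocyte groups overlapped (difference −0.94, adjusted p = 0.008, limma). *Atp5b* had 3326, 3497 and 3432 in quiescent and 4747, 4362 and 4595 in LPS microglia, and 5196, 5406 and 5464 in quiescent and 4506, 4783 and 4975 in activated astrocytes. It was higher after LPS in every microglial library, a called rise, and the lower values in the activated astrocytes were not a call (−0.15, adjusted p = 0.218; difference 0.60, adjusted p = 0.00111, limma).

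*Uqcrc1*, a large subunit of complex III, had 762, 824 and 809 in quiescent and 997, 859.8 and 921 in LPS microglia, and 902, 906 and 909 in quiescent and 772, 841 and 812 in activated astrocytes. Neither pair overlapped, but neither change was called on its own (0.21 with LPS, adjusted p = 0.056, and −0.15 with the cytokines, adjusted p = 0.169), and only their difference was (0.39, lost with quantile normalization). *Atp5l* (−1.04) and *Ndufa1* (−0.91) had the other large negative differences, and those of *Atp5l*, *Ndufa1*, *Uqcr11*, *Atp5b* and *Uqcrc1* held without any 1 library. *Cox6a2* (2.47) is counted among the 4 but not used as support, as it passed the filter only through the LPS microglia, with 0 to 2 reads in each WT astrocyte library. Its call was lost with edgeR, DESeq2 and a pseudocount of 0.5. The number called was 23 (3 more positive) without WT LPS replicate 1 and 20 (5 more positive) without WT quiescent astrocyte replicate 1. It was 3 more positive and 9 more negative with TMM rescaling, 2 and 5 with quantile normalization, 17 in all with the reads of a library as a term (5165 of all 12334 genes) and 25 with the length trend removed (5366 of 11899).

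Genotype was first compared in activated astrocytes. Of 77 genes tested, 30 were called and all 30 were higher, against 7.27 percent of all 12098 genes called and 4.6 percent called higher. The SOD1G93A and WT values did not overlap for 47 genes, all higher in SOD1G93A, against 24.1 percent over all genes. The median log2 difference was 0.23, against −0.0038 over all genes, and 74 of the 77 differences were above 0. The called genes were 9 of 35 in complex I (median 0.16), 0 of 4 in complex II (0.19), 5 of 8 in complex III (0.25), 8 of 13 in complex IV (0.28) and 8 of 15 in complex V (0.21). In complex II edgeR and DESeq2 also called 0, and 3 genes had an unadjusted limma p under 0.05. edgeR called 31 of the 77 genes and DESeq2 21. All 30 differences were small, between 0.20 for *Atp5f1*, a subunit of the stator stalk of the ATP synthase, and 0.47 for *Atp5k*, its membrane subunit e.

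*Atp5k* (GRCm38 chromosome 5, 108433244 to 108434448) had 223, 214 and 269.8 normalized counts in WT activated and 292, 322 and 366 in SOD1G93A activated astrocytes. Each SOD1G93A library lay above each WT library, though the nearest values were close (log2 change 0.47, SE 0.10, adjusted p = 0.00521, limma). Its reads may be shared with 1 near-identical copy. *Cox6c*, a small subunit of complex IV (GRCm38 chromosome 15, 35925886 to 35938246), had 388, 429.6 and 403 in WT and 548, 571 and 529 in SOD1G93A activated astrocytes, with a gap wider than the spread of either group (log2 change 0.43, SE 0.07, adjusted p = 0.000413, limma). *Ndufb5*, a membrane arm subunit of complex I, had 187, 225 and 222 in WT and 238, 307 and 307 in SOD1G93A (log2 change 0.42, SE 0.11, adjusted p = 0.0183, limma). SOD1G93A replicate 1 lay only just above the WT values. *Atp5b* had 4489.9, 4753 and 4954 in WT and 5344, 5791 and 5805 in SOD1G93A (0.25). *Cox4i1* had 1494, 1592 and 1588 in WT and 1786, 1948 and 1963 in SOD1G93A (0.28). Both genes separated the genotypes in all 6 libraries. *Uqcrc1* (0.26), *Cox6a1* (0.34), *Cox8a* (0.33), *Ndufa4* (0.33), *Atp5g3* (0.33) and *Uqcrfs1*, the Rieske iron-sulfur protein (0.31), were also higher. The core subunits *Ndufs1*, *Ndufv1* and *Sdha* were not called by limma: the differences were 0.05 for *Ndufs1*, 0.11 for *Ndufv1* and 0.13 for *Sdha*.

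Sequencing depth moved with genotype in these 6 libraries. The WT activated libraries had 5047999, 6768201 and 5749391 reads and the SOD1G93A ones 3721779, 3929272 and 2135439, so that every SOD1G93A library was shallower than every WT library. The 84 genes took 0.991, 1.04 and 1.06 percent of reads in WT and 1.12, 1.20 and 1.21 percent in SOD1G93A activated astrocytes. The cytosolic ribosomal protein genes, which are also short and abundant, took 4.27, 4.44 and 4.50 percent in WT and 4.40, 4.92 and 4.99 percent in SOD1G93A. With the reads of a library as a term in the fit, 1 of the 30 genes, *Cox6c*, was called, against 157 of all 12098 genes in that fit, and without the trend of limma 0 of the 77 were, where 38 had an unadjusted p under 0.05, against 222 of all genes called. The trend does not enter the differences themselves, and with the reads as a term their median was 0.19. Over all alternatives the difference was 0.22 to 0.57 for *Atp5k*, 0.35 to 0.56 for *Cox6c*, 0.33 to 0.54 for *Ndufb5*, 0.10 to 0.29 for *Atp5b*, 0.20 to 0.33 for *Cox4i1*, 0.21 to 0.36 for *Uqcrc1*, 0.24 to 0.42 for *Cox6a1*, 0.21 to 0.43 for *Cox8a*, 0.23 to 0.40 for *Ndufa4*, 0.19 to 0.41 for *Atp5g3* and 0.27 to 0.35 for *Uqcrfs1*. The *Atp5b* call was also lost with quantile normalization. With the trend over transcript length removed the median was 0.17. As no depth was shared by the genotypes, depth and genotype cannot be told apart in activated astrocytes. Limma called 11 of 77 cytosolic ribosomal protein genes higher and 0 lower, and 74 of their differences were above 0 (median 0.14). It called 2 of 74 mitochondrial ones higher and 0 lower, and 62 were above 0 (median 0.10). Over all genes 7.27 percent were called, and the part of these 2 lists was not tested. The summed level of 6 endothelial genes was nearly all *Flt1*, with *Cldn5* at 0. It was 137, 148 and 153 CPM in WT and 118, 117 and 111 in SOD1G93A. That of 7 pericyte and fibroblast genes, with *Lum* highest, was 54.7, 50.2 and 45.2 in WT and 34.4, 38.7 and 37.0 in SOD1G93A, also without overlap. Their part was not tested. Without WT activated replicate 1 or 2 the number called was 6 or 12, and without SOD1G93A activated replicate 2 or 3 it was 11 or 15. The calls of *Atp5k* and *Cox6c* held without any 1 library, those of *Cox4i1*, *Cox6a1* and *Atp5g3* were lost without WT replicate 1, and those of *Cox8a* and *Uqcrc1* without WT replicate 1 or SOD1G93A replicate 2. *Ndufb5* lost its call without WT replicate 1 or SOD1G93A replicate 2 or 3, *Atp5b* without WT replicate 1 or 2 or SOD1G93A replicate 2, *Ndufa4* without WT replicate 2 or SOD1G93A replicate 2, and *Uqcrfs1* without WT replicate 2 or 3 or SOD1G93A replicate 2.

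In quiescent astrocytes no gene of the chain was called between genotypes by limma, edgeR or DESeq2. Of 77 tested, 4 had an unadjusted limma p under 0.05, against 8.7 percent of all 12271 genes, of which 0.057 percent were called, and edgeR and DESeq2 gave 4 and 6 such genes. The 4 were *Sdhc*, *Ndufa2*, *Atp5j* and *Cox6c*, named here after their values were seen. The genotypes did not overlap for 3 genes (*Ndufa2*, *Ndufs7* and *Sdhc*), against 14.6 percent over all genes. The differences were above 0 for 73 of the 77 genes, with a median of 0.20 against 0.0021 over all genes, from 0.08 for complex II and 0.18 for complex I to 0.26 for complex IV. *Cox6c* had 508, 400.5 and 301 normalized counts in WT and 451, 576 and 686 in SOD1G93A quiescent astrocytes. The groups overlapped, and WT replicate 3 had the lowest value (log2 change 0.51, SE 0.20, adjusted p = 0.513, limma). Without any 1 library the count of calls was also 0 by limma, with medians between 0.036 and 0.33.

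The share of reads on the chain fell with depth in both quiescent groups, from 1.23 to 0.886 percent across the WT libraries and, for SOD1G93A, 1.31 percent at 3292225 reads, 1.23 at 7251063 and 1.09 at 9526331. The cytosolic ribosomal protein genes took 4.59, 3.91 and 2.93 percent in WT and 3.46, 4.14 and 4.77 percent in SOD1G93A quiescent astrocytes, with the same order of libraries. The summed oligodendrocyte lineage genes were 2956, 2883 and 2778 CPM in WT and 3421, 3177 and 3226 in SOD1G93A, without overlap. The part of these differences in the result was not tested. With the reads of a library as a term 53 genes were called, all higher in SOD1G93A, while of all 12271 genes 1120 were called higher and 1239 lower in that fit. Whether the genotype difference itself changed with activation was tested as an interaction. Of 77 genes, 0 were called by limma, edgeR or DESeq2, against 0.277 percent of all 12269 genes, and 2 (*Ndufs5* and *Uqcrc1*) had an unadjusted limma p under 0.05, against 8.3 percent. With the reads of a library as a term 13 were called, all with a more negative difference in activated cells, while of all 12269 genes 416 were called more negative and 664 more positive. The calls in activated and their absence in quiescent astrocytes are thus not shown to differ by genotype effect.

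In LPS microglia the genotypes were close. No respiratory chain gene of 76 was called by limma, edgeR or DESeq2, against 0.00936 percent of all 10679 genes, and 1, *Atp5sl* (−0.42), had an unadjusted limma p under 0.05, against 8.71 percent. The values did not overlap between genotypes for 3 genes (*Atp5a1*, *Atp5sl* and *Ndufa10*), against 18.2 percent over all genes. The median log2 difference was 0.01, with 39 differences above 0 and 37 below, and the medians by complex lay between −0.02 and 0.04. *Atp5b* had 4037, 3786 and 3951 normalized counts in WT LPS and 3845, 3871 and 3738 in SOD1G93A LPS microglia, with overlapping groups. *Uqcr11* had 199.8, 123 and 138 in WT and 131, 164 and 209 in SOD1G93A, with overlapping groups and the highest value in SOD1G93A replicate 3. Without any 1 library the count of calls was also 0 by limma.

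**Figure D3:**
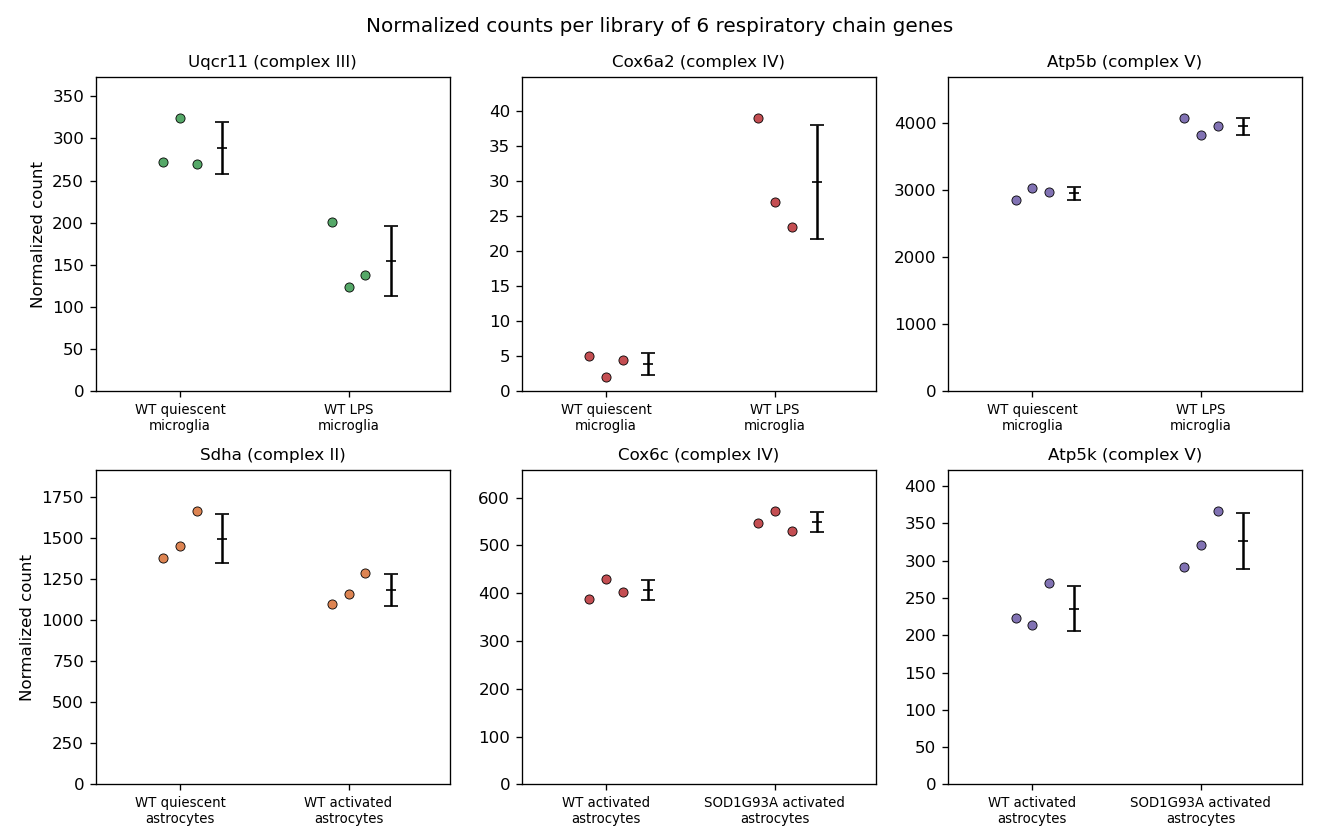
Normalized counts of *Uqcr11*, *Cox6a2* and *Atp5b* in WT quiescent and LPS microglia, *Sdha* in WT quiescent and activated astrocytes, and *Cox6c* and *Atp5k* in WT and SOD1G93A activated astrocytes, with a dot per library and bars for the mean ± SD of 3. The dots of the 2 groups do not overlap in any panel.

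Genes that serve the chain without being among the 84 were followed as separate lists. Cytochrome c (*Cycs*) and cytochrome c1 (*Cyc1*), the electron carrier and a complex III subunit that the naming rule misses, both rose with LPS in WT microglia. *Cycs* had 426, 463 and 463 normalized counts in WT quiescent and 933, 766 and 706 in WT LPS microglia (log2 change 0.82, SE 0.11, adjusted p = 0.000109, limma), and *Cyc1* had 296, 305 and 303 and 466, 389.7 and 439 (0.51). Neither gene overlapped between the groups. In activated WT astrocytes their changes were 0.06 and −0.08, and neither was called. *Cycs* was higher in SOD1G93A than in WT activated astrocytes (0.36, adjusted p = 0.00336, limma), where depth and genotype cannot be told apart.

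Among 21 genes for the assembly of complex IV, 6 rose and 3 fell with LPS, against 56.9 percent of all genes called. *Cox17*, a copper chaperone of complex IV, went from 90.8, 86.3 and 76.4 to 405, 266 and 289, the largest rise of the list (log2 change 1.89, SE 0.16, adjusted p = 3.23e-06, limma). Of 13 tested genes for complex I assembly 1 rose and 2 fell, of 2 for complex II 1 rose, of 5 for complex III 1 fell, and of 4 for complex V, which include its inhibitor, 1 rose and 2 fell, with the same share over all genes. *Atpif1*, the inhibitor of the ATP synthase, had 501, 547 and 491 before and 329.7, 247 and 251 after LPS, with no overlap (−0.90). In WT astrocytes the cytokines raised 4 and lowered 4 of 20 complex IV assembly genes and raised 2 of 6 for complex III, where 38.3 percent of all genes were called. They also raised 1 of 3 for complex II and 1 of 4 for complex V. Of 14 for complex I 0 were called by limma, and 1 had an unadjusted limma p under 0.05. In quiescent microglia against astrocytes 11 of 14 complex I assembly genes were lower and 1 higher (median −0.76), against 39.9 percent lower and 38.5 percent higher over all genes. Of 21 for complex IV 5 were lower and 6 higher (median 0.10). For complexes II, III and V 1 of 3, 3 of 6 and 1 of 4 were lower, and 0 were called higher by limma.

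The citric acid cycle and pyruvate dehydrogenase, which feed the chain with electrons, were followed in 17 genes. With LPS 4 rose and 5 fell in WT microglia (56.9 percent of all genes were called), with the cytokines 6 were called in WT astrocytes, all lower (38.3 percent of all genes), and 7 were higher in SOD1G93A than in WT activated astrocytes (7.27 percent of all genes). Citrate synthase (*Cs*) fell in activated WT astrocytes (−0.46) and was higher in SOD1G93A than WT activated ones (0.39). These genotype calls, and that of *Ppargc1a* below, come from the 6 libraries in which depth and genotype cannot be told apart. They were not followed in the alternatives. *Ppargc1a*, a coactivator of mitochondrial biogenesis, had 354, 426 and 416 normalized counts in WT quiescent and 222, 183 and 235 in WT activated astrocytes (log2 change −0.90, SE 0.12, adjusted p = 0.000128, limma). All activated libraries lay below the quiescent range. It had 191, 158 and 201 in WT and 323, 248 and 291 in SOD1G93A activated astrocytes, a difference in the other direction and also without overlap (0.64). In quiescent microglia it was near the lower limit of testing, with 9.62, 13.9 and 7.56 against 283, 345 and 343 in astrocytes (−4.87). Of 13 biogenesis regulators, 4 of the 12 tested rose and 2 fell with LPS, also against 56.9 percent. *Nrf1* (0.34) and *Esrra* (0.76), transcription factors of respiratory genes, rose, while *Tfam* (0.49) and *Gabpa* (−0.12) were not called.

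A list of 8 genes of inflammation, hypoxia and mitochondrial transport had a median log2 change of 1.08 with LPS. *Irg1*, which makes itaconate, an inhibitor of succinate dehydrogenase, had 259.8, 196 and 281 normalized counts before and 21824, 25193 and 24123 after LPS in WT microglia (6.60). *Nos2*, which makes nitric oxide, an inhibitor of complex IV, had 16.7, 10.5 and 15.1 before and 2766, 3207 and 3007 after LPS (7.65). Both rose in all 3 libraries by far more than any gene of the chain. Of the 8 genes 5 rose and 3 fell with LPS, and 6 rose in activated WT astrocytes with *Hif1a* at 1.38, against 19.1 percent of all genes. Of 74 mitochondrial ribosomal protein genes 24 rose and 4 fell with LPS (median 0.15), while of 77 tested cytosolic ones 3 rose and 41 fell (median −0.32), against 28.6 percent higher and 28.3 percent lower over all genes.

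Promoter sequences were read from RefSeq for 69 of the 84 genes (GRCm38.p6, 250 bases before to 50 after the start) and searched on both strands for motifs known from genes of the respiratory chain. The NRF1-type motif GCGCANGCG was found in 19 of the 69 (27.5 percent), against 6.47 percent of 27025 promoters. The ETS-type motif CCGGAAG, as bound by the GABP factor, was found in 15 (21.7 percent against 9.12 percent), and the YY1-type motif AAGATGGC in 10 (14.5 percent against 2.88 percent). Any of the 3 was found in 37 (53.6 percent against 16.5 percent). A match describes letters in the window and not a bound site. The sequences run from 120 bases before to 30 after the start on the minus strand, 5′ to 3′, with the motifs in capitals, and are shown for a gene that fell with LPS, a gene higher in SOD1G93A activated astrocytes and the gene with the clearest fall in activated WT astrocytes.
*Uqcr11* (chr10:80406792-80406941): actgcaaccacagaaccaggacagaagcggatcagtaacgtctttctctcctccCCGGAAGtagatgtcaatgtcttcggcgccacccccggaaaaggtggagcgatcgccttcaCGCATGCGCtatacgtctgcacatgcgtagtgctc
*Atp5k* (chr5:108434370-108434519): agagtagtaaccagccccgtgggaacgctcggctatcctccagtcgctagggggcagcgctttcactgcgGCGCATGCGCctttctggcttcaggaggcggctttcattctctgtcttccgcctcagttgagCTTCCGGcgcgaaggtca
*Sdha* (chr13:74350211-74350360): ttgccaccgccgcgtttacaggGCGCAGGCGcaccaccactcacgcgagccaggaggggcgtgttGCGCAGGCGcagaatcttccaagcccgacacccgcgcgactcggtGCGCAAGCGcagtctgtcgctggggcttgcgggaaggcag
The *Uqcr11* window held an ETS-type and an NRF1-type motif, that of *Atp5k* 2 overlapping NRF1-type motifs and an ETS-type one, and that of *Sdha* 3 NRF1-type motifs. In the same windows of *Atp5b*, which rose with LPS, and of *Ndufb11* and *Ndufv3*, which fell, none of the 3 motifs was found.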

How the data were processed

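RNA-seq of cultured mouse astrocytes and microglia was processed by the authors with STAR 2.7.3a on mm10, RSEM and DESeq2 1.38.0 in R 3.6.1, and the annotation is not given in the sources used here. The deposited signal is gene counts divided by size factors within each of 6 tables. The authors' own comparison columns (log2 fold changes, p-values) were not used. In each column 100.0 percent of values were whole reads once rescaled (tolerance 0.01), which gave the depth and allowed libraries of different tables to be scaled together by the median of ratios.

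Within a table, limma 3.58.1 (R 4.3.3, with trend) was fitted on log2(normalized count + 1) for genes with a mean of at least 10, with Benjamini-Hochberg adjustment over all genes. A fold change on that scale understates the change of low genes. Genes were called at an adjusted p under 0.05. On recovered reads edgeR 4.0.16 called 7 of all genes between genotypes in quiescent astrocytes, 941 in activated astrocytes and 1 in LPS microglia, and DESeq2 1.42.0 called 55, 582 and 18. Limma called 7, 879 and 1. The fits were tested on simulated data. Alternatives covered the pseudocount, filter, scaling, tool, replicate block and each library left out. Terms for depth and transcript length were chosen after seeing the data.

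Genes were named by rule, as the 3 largest rises and falls among called genes without overlap in a comparison (all calls where there were 6 or fewer), the tissue isoforms of complexes IV and V, and the core subunits. For other lists the rule took the largest rises and falls and a few regulators. Values of some genes named by the rule are not reported here. Genes behind a count of 5 or fewer, at the end of a range or followed into a further comparison were named after their values were seen. The genes and lists were chosen with earlier results of these data known. Lengths came from GENCODE release 21 for mouse (83 of 84 genes), copies from BLAST 2.17.0 (at least 95 percent identity over 50 percent of the transcript) and promoters from RefSeq. Replicates differed by more than sampling noise in all 21 pairs (chi-square per degree of freedom 1.48 to 20.3).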

Additional observations from a re-analysis of the deposited data

Results flagged for a closer look

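The change with LPS in WT microglia differed from the change with the cytokines in WT astrocytes for 11 of 78 respiratory chain genes tested, by a test of the difference itself (limma on log2 counts, adjusted over all genes). This is a smaller share than the 41 percent called over all 12334 genes. Of 77 cytosolic ribosomal protein genes 42 were called more negative in microglia (median −0.58), and their part was not tested. The change was more negative in microglia for *Atp5l* (−1.04), *Uqcr11* (−0.94), *Ndufa1* (−0.91), *Atp5e* (−0.89), *Ndufv3* (−0.87), *Ndufb11* (−0.76) and *Ndufs5* (−0.73). It was more positive for *Atp5b* (0.60), *Uqcrc1* (0.39), *Atp5a1* (0.31) and *Cox6a2* (2.47). *Cox6a2* passed the filter on low values only through the LPS microglia, had 0 to 2 reads in each WT astrocyte library and lost its call with edgeR, DESeq2 and a pseudocount of 0.5, so its test is not used as support. The *Atp5a1* difference lost its call in 14 of 24 alternatives, where it went as low as 0.08: with edgeR, quantile normalization, TMM rescaling, no filter on low values and the replicate block, and without any 1 of the WT quiescent microglia and activated astrocyte replicates, WT LPS replicate 2 or 3, or quiescent astrocyte replicate 2. The stimuli differ between the cell types, so cell type and stimulus cannot be told apart.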

How the results depend on the processing

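Of 82 calls of named respiratory chain genes, 37 were kept in every alternative, 44 were lost in some, and 1 reversed. That was *Cox6a1* in quiescent microglia against astrocytes, at −0.12 with quantile normalization. Calls of genes from the other lists were not followed in the alternatives. The number of respiratory chain genes called was 1 for WT activated astrocytes, 0 for SOD1G93A against WT activated astrocytes and 2 for activation of SOD1G93A astrocytes without the trend of limma. With the reads of a library as a term it was 39 for WT astrocyte activation, 53 for genotype in quiescent and 1 in activated astrocytes, 13 for genotype by activation and 17 for the difference between cell type responses. Medians with that term were −0.026 for activation of SOD1G93A astrocytes and −0.28 for genotype by activation. With the length trend removed 12 genes were called for WT and 11 for SOD1G93A astrocyte activation and 25 for the difference between cell type responses, with medians of 0.17 for genotype in activated astrocytes, −0.036 for activation of SOD1G93A astrocytes and 0.021 for the difference between cell type responses. Quantile normalization gave 7 calls for that difference and medians of −0.14 for SOD1G93A LPS against WT quiescent microglia and −0.64 for microglia against astrocytes. The cause of these moves was not tested.

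Leaving out each library in turn gave 12 to 40 calls for LPS in WT microglia, 0 to 20 for activation of WT astrocytes (medians −0.11 to 0.19), 6 to 40 for genotype in activated astrocytes, 1 to 21 for activation of SOD1G93A astrocytes and 8 to 23 for the difference between cell type responses. For SOD1G93A LPS against WT quiescent microglia the median ran from −0.10 to −0.0047. With 1 library left out of a group the other 2 carry its spread. In the 8 comparisons of 2 groups, the deviations of libraries with the same replicate number had correlations of −0.44 to 0.06. With 3 libraries in a group and unlike depths, these cannot settle whether the numbers pair the samples. The fit with the replicate number as a block called 11 genes for activation of SOD1G93A astrocytes, against 7, and 43 for genotype in activated astrocytes, against 30.

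Counts are uncertain for the 11 genes with a near-identical copy in the genome (*Atp5l*, *Atp5h*, *Uqcrb*, *Atp5g2*, *Atp5c1*, *Atp5k*, *Atp5o*, *Cox7c*, *Ndufb11*, *Ndufs3* and *Ndufs6*), which is a pseudogene for 10 of them. Depth from 2016139 reads limits the genes of few reads, such as *Cox6a2* and *Cox6b2*.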
